A study of Homo sapiens with 12 samples.

Results

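Mitosis and G2/M genes encode the proteins that carry a cell from the end of DNA synthesis through division. 40 of them were selected by gene name, and all 40 were found among the 58302 genes of the deposited expression table. By role they fell into 7 genes of cyclins, CDK1 and their activators, 6 of mitotic kinases and the chromosomal passenger complex, and 8 of the spindle checkpoint and the anaphase-promoting complex. A further 6 were kinetochore and centromere genes, 6 were spindle motors and microtubule-binding proteins, 5 acted in the central spindle and cytokinesis, and 2 belonged to mitotic chromosomes. The rule used gene names alone, but the members were chosen with earlier results of these data known.

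The samples were the human pancreatic cancer lines BxPC-3 and CFPAC-1, recorded as epithelial and sensitive to gemcitabine (GEM), a nucleoside analog that blocks DNA synthesis, and the resistant line raised from each. BxPC-3-GR (recorded as mesenchymal and resistant) and CFPAC-1-GR (recorded as epithelial and resistant) had been selected by exposure of the parental cells to rising GEM concentrations. Each of the 4 lines gave 3 RNA sequencing libraries, 12 in all. Nothing says that the 3 came from separate cultures, so p values measure only the spread between these libraries, and each parent is represented by 1 resistant line.

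Entry into mitosis is driven by CDK1 bound to cyclin A2 or a B-type cyclin, which the CDC25 phosphatases activate and which the transcription factor FOXM1 helps to supply. The spindle checkpoint (BUB1, BUB1B, BUB3, TTK, MAD2L1) holds the anaphase-promoting complex until every kinetochore is attached, after which CDC20 and UBE2C direct the destruction of cyclin B and securin (PTTG1). Most of these genes are transcribed periodically, late in the cycle, and their proteins are then degraded. In a bulk sample of cells, fewer dividing cells and less RNA per dividing cell cannot be told apart.

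Values are FPKM, fragments per kilobase of gene scaled to the mapped fragments of the library, as the authors deposited them, and the implied depth of the libraries was 12600000 to 25200000 mapped fragments. The least covered member was TTK in CFPAC-1, with 46 to 96 implied fragments per library. Ductal epithelial markers were present in every group (KRT19 means 470.2 to 1573 FPKM), although CLDN4 had a mean of 0.432 FPKM in CFPAC-1-GR. CLDN4 varied widely between libraries of a group. It ran from 0.0415 to 8.78 FPKM in BxPC-3, 1.42 to 23.4 FPKM in BxPC-3-GR, 0.194 to 4.87 FPKM in CFPAC-1 and 0.104 to 0.799 FPKM in CFPAC-1-GR. Of 6 fibroblast markers 5 or 6 lay below 1 FPKM in each group, all 4 endothelial markers did in each group, and among 5 leukocyte markers PTPRC and MS4A1 were listed at 0 in every group. The summed leukocyte list was 1.49 to 4.43 FPKM in the BxPC-3 lines, 32.6 to 40.2 FPKM in CFPAC-1 and 14.4 to 16.5 FPKM in CFPAC-1-GR, most of it CD68, and its part in the results was not tested. The 3 CFPAC-1 libraries stood apart from the other 9. Over 12184 genes, the log2 deviation of a gene from its mean over the 12 libraries was set against GC content. For each 10% of GC content it rose by 0.626 to 0.637 in CFPAC-1, beside slopes of -0.150 to -0.271 in the others. Slopes of such deviations balance out, so the sign in the other 9 follows from that in CFPAC-1. Only the gap in trend between CFPAC-1 and the others was observed. The origin of this trend was not tested. The log2FC and counts in CFPAC-1-GR and in the difference between the lines are therefore given with and without a correction for GC content and length, while FPKM levels and their order are as deposited.

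What the members share beyond their role can be seen in their promoters, and the sequences below show it for CDC20, which activates the anaphase-promoting complex, TOP2A, the topoisomerase of mitotic chromosomes, MKI67, the Ki-67 proliferation marker, and DLGAP5, a spindle-assembly protein. RefSeq promoters (GRCh38.p14, from 250 bases before the annotated start) were held for 33 of the 40 members, 43 promoters in all. CCAAT, the core motif of the factor NF-Y, occurred on either strand in 74.4% of these 43 windows of 300 bases, against 34.6% of 35116 human promoters. TTTGAA, the usual form of the cell cycle genes homology region (CHR), occurred in 62.8% against 15.2%, and TTCGAA, a CHR variant that equals its own reverse complement, in 6.98% against 1.45%. CCAAT together with either CHR form was found in 55.8% of member promoters and in 6.38% of all promoters (5.48% of 22199 promoters of protein-coding genes). The same combination was found in 29.3% of 123 promoters of other mitosis genes, 2.94% of 34 S phase promoters and 3.85% of 26 promoters of G1 control genes. CCAAT, with or without a CHR form, occurred in 57.7% of the other mitosis, 61.8% of the S phase and 34.6% of the G1 control promoters. For TTTGAA these shares were 40.7%, 0% and 7.69%. The genes printed were those of highest mean FPKM among the members with both CCAAT and a CHR form in a window. They carry the combination by choice and do not show how common it is. The windows printed run from 250 bases before the start to 30 bases after it, 5′ to 3′ along the gene. Capitals mark CCAAT or its reverse complement, and the CHR motif in its usual form in either direction.
CDC20 (chr1:43358731-43359010, plus strand): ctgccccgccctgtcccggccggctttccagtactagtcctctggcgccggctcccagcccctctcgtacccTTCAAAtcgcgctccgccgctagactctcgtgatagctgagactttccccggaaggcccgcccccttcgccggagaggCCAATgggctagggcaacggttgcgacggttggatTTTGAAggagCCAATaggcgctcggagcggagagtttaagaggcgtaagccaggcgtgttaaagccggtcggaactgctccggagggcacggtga
TOP2A (chr17:40417867-40418146, minus strand): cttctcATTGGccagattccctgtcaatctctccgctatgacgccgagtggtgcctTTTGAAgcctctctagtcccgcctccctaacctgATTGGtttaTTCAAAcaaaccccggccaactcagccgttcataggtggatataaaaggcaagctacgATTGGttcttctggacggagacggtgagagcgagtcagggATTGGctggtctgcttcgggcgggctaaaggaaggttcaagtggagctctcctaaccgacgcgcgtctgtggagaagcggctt
MKI67 (chr10:128126394-128126673, minus strand): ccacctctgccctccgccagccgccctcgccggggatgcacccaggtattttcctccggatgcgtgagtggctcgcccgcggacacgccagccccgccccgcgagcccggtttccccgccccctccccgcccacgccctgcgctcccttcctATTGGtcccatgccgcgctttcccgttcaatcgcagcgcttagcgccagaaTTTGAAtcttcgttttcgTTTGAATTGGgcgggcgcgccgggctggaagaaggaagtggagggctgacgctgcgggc
DLGAP5 (chr14:55191556-55191835, minus strand): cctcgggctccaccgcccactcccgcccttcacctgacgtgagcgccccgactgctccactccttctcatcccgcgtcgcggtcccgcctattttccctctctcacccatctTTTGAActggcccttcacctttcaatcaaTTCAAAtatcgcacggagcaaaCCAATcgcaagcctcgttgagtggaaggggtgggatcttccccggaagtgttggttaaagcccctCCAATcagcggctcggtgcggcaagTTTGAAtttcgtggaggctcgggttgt
In MKI67, TTTGAA and the reverse complement of CCAAT overlap in a single run of capitals.

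Position and strand of the matches are set beside those in all promoters as a description, with no test. Of 39 TTTGAA matches in member promoters, 32 lay on the strand of the gene and 7 on the other, 82.1% against 51.4% of 6238 matches over all promoters, and their median first base was 28 bases before the start against 125 bases before it. In promoters of other mitosis genes the median first base of 56 matches was 30.5 bases before the start, near that of the members, while 28 of the 56 (50.0%) lay on the gene's strand. CCAAT matches in members had a median position of 86 bases before the start, close to the 96 bases of all promoters, and 27 of 68 were on the gene's strand. Several promoters of 1 gene share sequence, so these matches are not independent. Absence of a match, as in the CENPE and KIF2C windows, says only that these letters were not in that window.

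**Figure D1:**
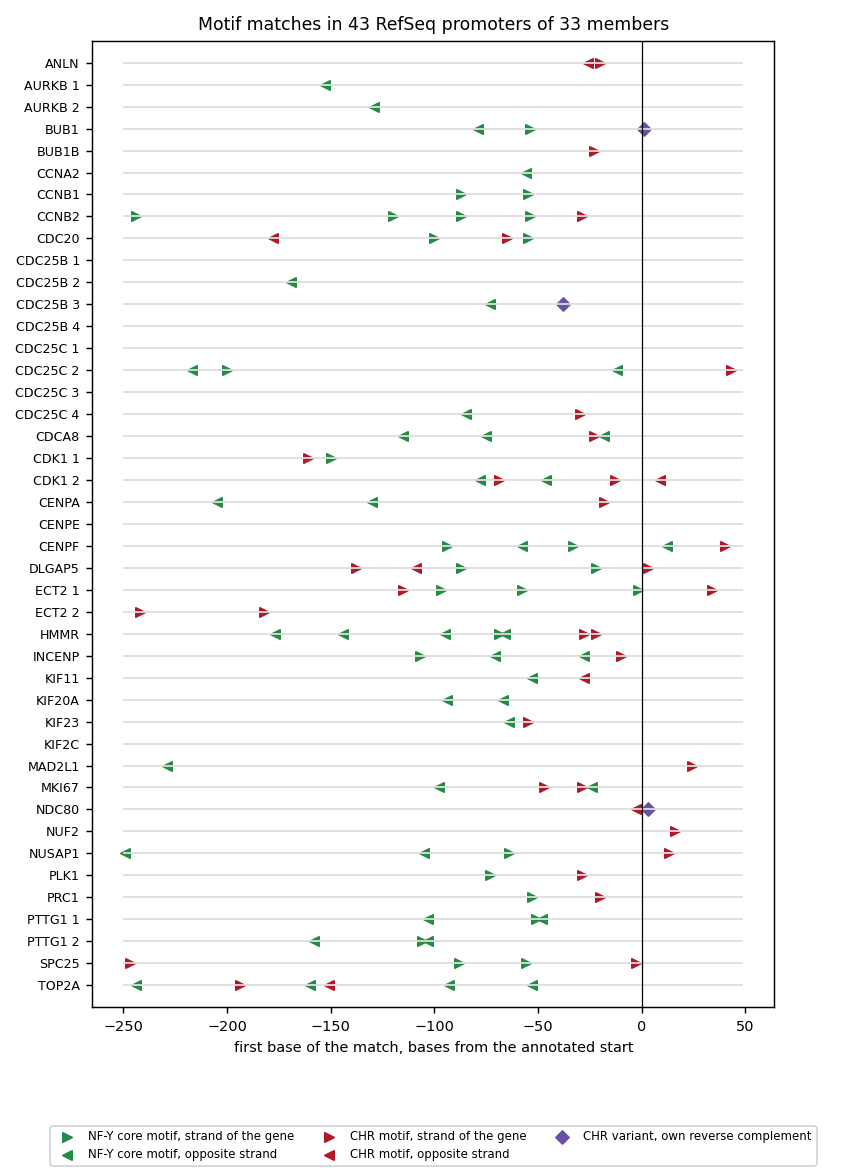
Matches of the NF-Y core motif (CCAAT), the CHR motif (TTTGAA) and the CHR variant (TTCGAA) in 43 RefSeq promoters of 33 members, 1 line per promoter, numbered where a gene has several; the x axis gives the first base of the match in bases from the annotated start. CHR matches gather just before the start, with a median of 28 bases before it, and 32 of 39 point along the gene.

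Transcript levels of the members spanned a wide range in each line, and FPKM, being scaled per length, allow genes to be ordered. Length scaling does not remove the trend of the CFPAC-1 libraries with GC content, so the order in CFPAC-1 includes it. Group means ran from 2.57 FPKM (CDC25C) to 149.8 FPKM (TPX2) in BxPC-3, with a median of 21 FPKM over the 40 genes, and from 2.34 FPKM (SPC25) to 124.8 FPKM (TPX2) in BxPC-3-GR, with a median of 17.9 FPKM. In CFPAC-1 they ran from 0.473 FPKM (CENPE) to 220.7 FPKM (CDC20) around a median of 10.3 FPKM, and in CFPAC-1-GR from 3.21 FPKM (SPC25) to 149.1 FPKM (TOP2A) around 18.8 FPKM. TPX2, which activates Aurora A on the spindle, and CDC20 were among the 3 highest members in all 4 lines. All 40 means exceeded 1 FPKM in BxPC-3, BxPC-3-GR and CFPAC-1-GR, and 38 did in CFPAC-1, where CENPE and TTK fell short. Summed over the members, the share of all FPKM was 0.400% ± 0.013 (SD, n = 3) in BxPC-3, 0.353% ± 0.0056 in BxPC-3-GR, 0.359% ± 0.0053 in CFPAC-1 and 0.433% ± 0.043 in CFPAC-1-GR. The 10 highest genes of a library took a mean of 34.8%, 35.0%, 13.0% and 24.0% of all FPKM in the same order of lines. A share of all FPKM depends on these genes too.

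Neighbours in the order were seldom separated by their libraries: of 39 neighbouring pairs, the 3 libraries of 1 gene lay wholly above those of the next in 15 pairs in BxPC-3, 14 in BxPC-3-GR, 12 in CFPAC-1 and 5 in CFPAC-1-GR. The order itself was alike in BxPC-3 and BxPC-3-GR (Spearman's rho = 0.971 over 40 gene means) and in CFPAC-1-GR and BxPC-3-GR (0.943). It was less alike between CFPAC-1 and CFPAC-1-GR (0.620) and between BxPC-3 and CFPAC-1 (0.706). These 40 points share library, length scaling and base composition and are given as a description. Within a group the coefficient of variation over replicates had a median of 3.86% in BxPC-3, 4.54% in BxPC-3-GR, 6.30% in CFPAC-1 and 9.34% in CFPAC-1-GR.

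**Figure D2:**
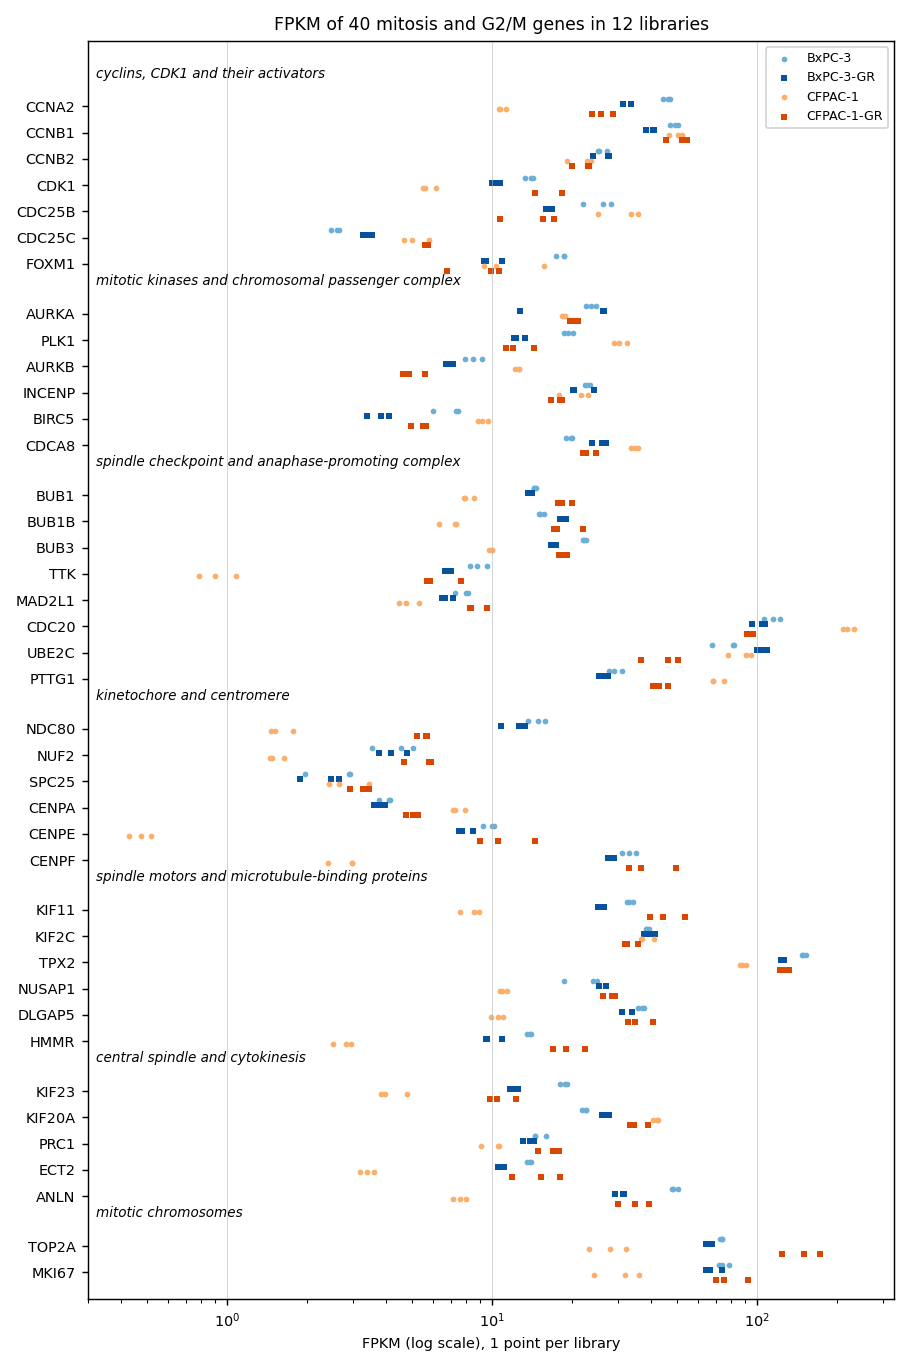
FPKM of the 40 members (x axis, log scale) in each of the 12 libraries, 1 point per library, grouped by role; circles are parental lines and squares GEM-resistant lines. In CFPAC-1 the points of CENPE, CENPF, TTK, HMMR and NDC80 lie far to the left of those of the other 3 lines.

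Whether resistance came with a change of the mitotic program was examined by comparing each GEM-resistant line with its parent. BxPC-3-GR held slightly lower levels of much of the set than BxPC-3. In limma, 0 of 40 members met the criteria for a significantly differentially expressed (SDE) gene, with adjusted p under 0.05 and log2FC beyond 1 in size, in either direction, while 4.14% of 11710 genes tested were SDE upward and 3.62% downward. By adjusted p alone 19 members fell (47.5%, beside 31.5% of all genes), 5 rose (12.5%, beside 26.2%) and 16 did not pass. At an unadjusted p below 0.05, 22 were lower (55%, beside 34.3%) and 5 higher (12.5%, beside 28.3%). All 3 BxPC-3-GR libraries lay below all 3 BxPC-3 libraries for 25 members (36% of all genes) and above them for 6 (30.1%). The median log2FC of the members was -0.18, against -0.045 over all genes tested. An exact 2-sided permutation test of 3 against 3 libraries cannot give a p below 0.10, so the p values rest on the variance that limma shares across genes.

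Counts by role in BxPC-3-GR are by adjusted p and stand beside the 31.5% of all genes that fell and the 26.2% that rose. Among cyclins, CDK1 and their activators, 5 of 7 genes fell in BxPC-3-GR and 1 rose. FOXM1, the transcription factor of G2/M genes, was at 18.8, 18.7 and 17.5 FPKM in BxPC-3 and 10.9, 9.49 and 9.35 FPKM in BxPC-3-GR. All 3 resistant libraries were lower, and no member fell further (log2FC -0.83 ± 0.072 (SE), adjusted p = 0.000204). CCNA2, which encodes cyclin A2, was at 44.3, 46.3 and 46.9 FPKM in BxPC-3 and 33.5, 33.6 and 31.2 FPKM in BxPC-3-GR (log2FC -0.47 ± 0.054 (SE), adjusted p = 0.000592). CDC25B, a phosphatase that activates CDK1, was at 26.2, 28.2 and 22.1 FPKM in BxPC-3 and 16.1, 16.9 and 16.3 FPKM in BxPC-3-GR (log2FC -0.60 ± 0.093 (SE), adjusted p = 0.00212). The groups did not overlap for either gene. CDK1 (log2FC -0.40) and CCNB1, cyclin B1 (-0.29), also fell, whereas the log2FC of CCNB2, cyclin B2, was 0.021 (adjusted p = 0.823). CDC25C, a second activating phosphatase, rose from 2.60, 2.64 and 2.48 FPKM to 3.53, 3.43 and 3.27 FPKM (log2FC 0.30 ± 0.050 (SE), adjusted p = 0.00266).

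Of the mitotic kinases and the chromosomal passenger complex, 3 of 6 fell and 1 rose. BIRC5, the passenger subunit survivin, was at 7.34, 7.45 and 5.98 FPKM in BxPC-3 and 3.38, 4.07 and 3.83 FPKM in BxPC-3-GR (log2FC -0.73 ± 0.098 (SE), adjusted p = 0.00112). PLK1, the polo-like kinase of mitotic entry and spindle assembly, was at 20.2, 19.5 and 18.8 FPKM in BxPC-3 and 13.4, 12.3 and 12.1 FPKM in BxPC-3-GR (log2FC -0.59 ± 0.059 (SE), adjusted p = 0.000343). Both were lower in every resistant library. AURKB, the kinase of the complex, fell by less (log2FC -0.27, adjusted p = 0.0135), and INCENP, its scaffold, did not pass (-0.081, adjusted p = 0.411). CDCA8, the subunit borealin, moved the other way, from 20.1, 19.9 and 19.1 FPKM to 26, 27 and 23.8 FPKM (log2FC 0.36 ± 0.062 (SE), adjusted p = 0.00317). AURKA, the centrosomal Aurora kinase, was at 23.7, 22.7 and 24.7 FPKM in BxPC-3 and 26.2, 26.5 and 12.8 FPKM in BxPC-3-GR. Replicate 3 of BxPC-3-GR lay below all other libraries and replicates 1 and 2 above them, which gave log2FC -0.18 ± 0.27 (SE), adjusted p = 0.590. Without replicate 3 the AURKA log2FC in BxPC-3-GR was 0.15 (adjusted p = 0.0917). AURKA had the widest replicate spread of any member in BxPC-3-GR, a coefficient of variation of 35.8%.

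Spindle checkpoint and anaphase-promoting complex genes were split, with 2 of 8 lower, 2 higher and 4 not passing. The shares of all genes were 31.5% lower and 26.2% higher. UBE2C, the ubiquitin-conjugating enzyme of the complex, was at 81.4, 82 and 67.4 FPKM in BxPC-3 and 99.7, 109 and 105 FPKM in BxPC-3-GR. Every resistant library was higher, and no member rose further (log2FC 0.44 ± 0.090 (SE), adjusted p = 0.00666). BUB1B, the checkpoint protein BubR1, rose from 15.1, 15.8 and 15 FPKM to 18, 19.1 and 18.7 FPKM (log2FC 0.27, adjusted p = 0.00445). BUB3, the partner of BUB1 and BubR1, fell (log2FC -0.36), as did TTK, the checkpoint kinase MPS1 (-0.34). The remaining 4 genes did not pass. BUB1, the kinase that recruits them, was at 14.4, 14.4 and 14.6 FPKM in BxPC-3 and 13.9, 13.6 and 14.2 FPKM in BxPC-3-GR (log2FC -0.053 ± 0.045 (SE), adjusted p = 0.350). CDC20 was at 115, 122 and 106 FPKM in BxPC-3 and 108, 104 and 96 FPKM in BxPC-3-GR, with overlapping groups (log2FC -0.15 ± 0.075 (SE), adjusted p = 0.126). The log2FC was -0.18 (adjusted p = 0.0536) for MAD2L1, which restrains CDC20, and -0.14 (adjusted p = 0.105) for PTTG1.

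At the kinetochore 2 of 6 genes fell, near the 31.5% of all genes. They were CENPE, the kinesin that moves chromosomes to the spindle equator (log2FC -0.28, adjusted p = 0.0105), and CENPF, a large outer kinetochore protein (-0.23, adjusted p = 0.0183). NDC80, the microtubule-binding core, was at 15.8, 14.9 and 13.7 FPKM in BxPC-3 and 10.8, 12.7 and 13.4 FPKM in BxPC-3-GR, all lower but short of the threshold (adjusted p = 0.0543). NUF2, its partner, had a log2FC of -0.028 (adjusted p = 0.865) that turned to 0.014 with median-of-ratios scaling, and SPC25 and CENPA did not pass either. Of the spindle motors and microtubule-binding proteins 3 of 6 fell. KIF11, the kinesin Eg5 that separates spindle poles, was at 32.8, 32.5 and 34.2 FPKM in BxPC-3 and 26.1, 25.2 and 26.4 FPKM in BxPC-3-GR (log2FC -0.34 ± 0.049 (SE), adjusted p = 0.00148). HMMR fell by 0.44 and TPX2 by 0.26 on the log2 scale, and KIF2C, NUSAP1 and DLGAP5 did not pass.

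Of the 5 cytokinesis genes 3 fell in BxPC-3-GR and 1 rose. ANLN, the contractile ring scaffold anillin, was at 47.8, 48.4 and 50.3 FPKM in BxPC-3 and 31.2, 31.6 and 29 FPKM in BxPC-3-GR (log2FC -0.66 ± 0.055 (SE), adjusted p = 0.000170). KIF23, a motor of the central spindle, was at 18, 19.2 and 18.8 FPKM in BxPC-3 and 11.7, 12 and 12.6 FPKM in BxPC-3-GR (log2FC -0.59 ± 0.054 (SE), adjusted p = 0.000233). ECT2, which activates RhoA for furrowing, had a log2FC of -0.31 (adjusted p = 0.00199). In all 3 the resistant libraries were wholly lower. KIF20A, another motor of the central spindle, rose instead (0.24, adjusted p = 0.00593), and PRC1, which bundles its microtubules, did not pass. The chromosome genes moved little, TOP2A from 74.1, 72.6 and 73.9 FPKM to 64, 65.3 and 67.6 FPKM (log2FC -0.16 ± 0.047 (SE), adjusted p = 0.0265) and MKI67 from 73.6, 72.1 and 78.2 FPKM to 74, 66.4 and 64.1 FPKM (log2FC -0.13, adjusted p = 0.163). Correction for GC content and length left 0 SDE members, beside 4.23% of 11685 genes upward and 3.45% downward. By adjusted p 20 were then lower (beside 30.9%) and 5 higher (beside 28%), MKI67 being the added gene (log2FC -0.21, adjusted p = 0.0359).

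**Figure D3:**
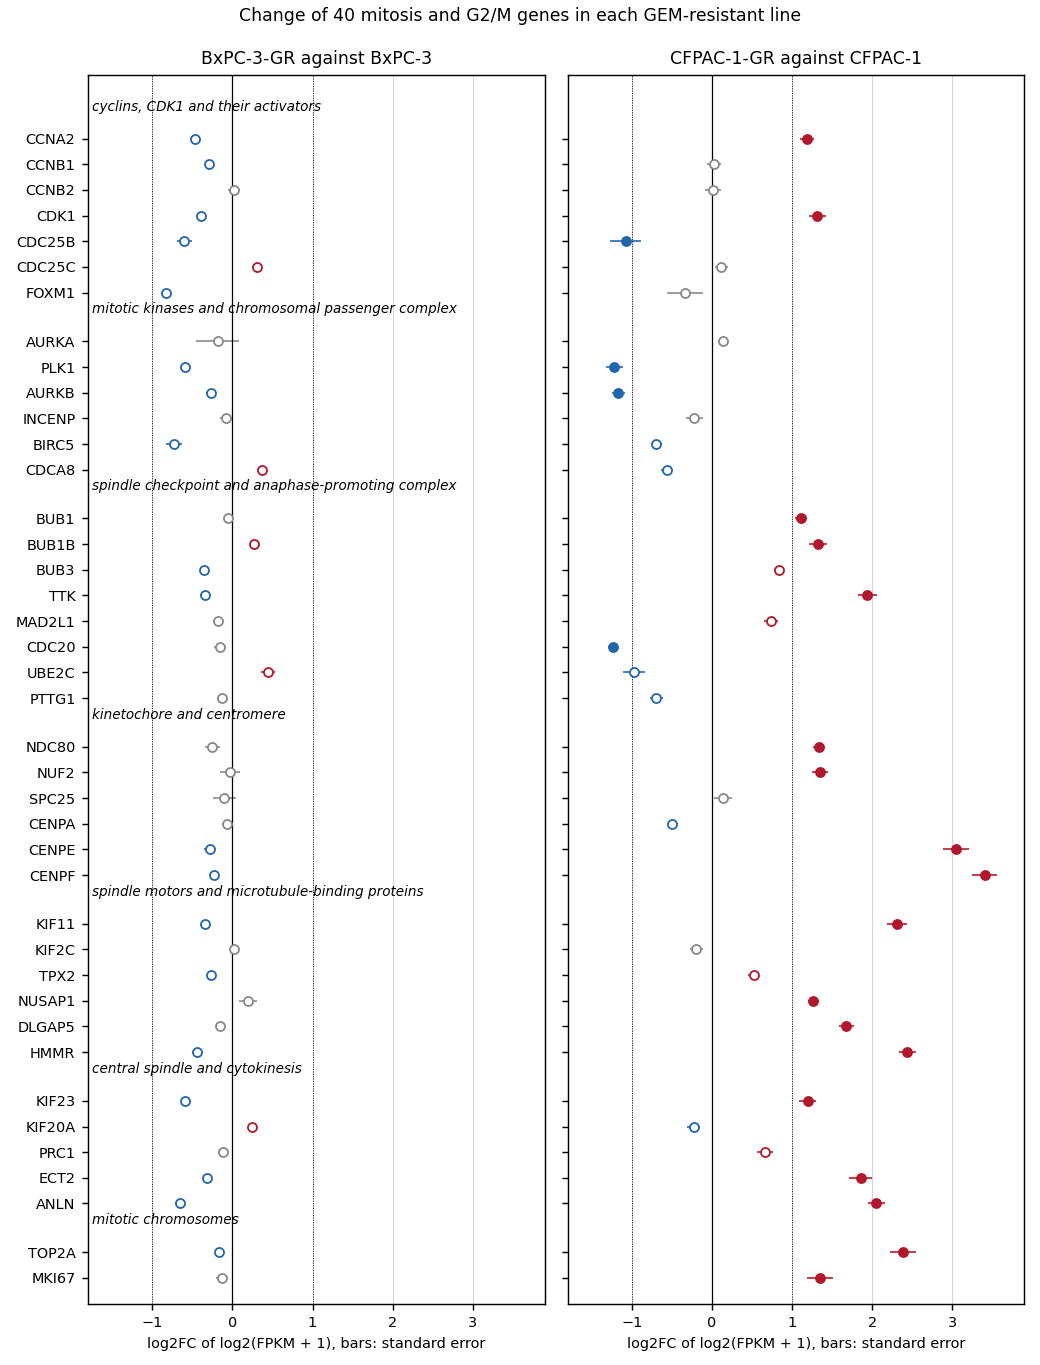
log2FC of log2(FPKM + 1) for the 40 members in BxPC-3-GR against BxPC-3 (left) and CFPAC-1-GR against CFPAC-1 (right), grouped by role, with standard errors; red is higher and blue lower at an adjusted p below 0.05, grey did not pass, and filled points are SDE. No point on the left is filled, and on the right 18 are filled above 1 and 4 below -1.

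CFPAC-1-GR differed from CFPAC-1 by far more, and in both directions. In the FPKM as deposited 18 of 40 members were SDE upward (45%, beside 20.5% of 12051 genes tested) and 4 downward (10%, beside 11.7%). By adjusted p alone 22 rose (55%, beside 44.6%) and 10 fell (25%, beside 34.9%), and the 3 libraries of each line did not overlap for 23 higher (45.7% of all genes) and 11 lower members (36.4%). Corrected for GC content and length, 5 members were SDE upward (12.5%, beside 4.69% of 12030 genes) and 0 downward (beside 3.97%), with 18 higher (45%, beside 29.6%) and 14 lower (35%, beside 30.6%) by adjusted p in limma, or 20 higher (beside 31.9%) and 15 lower (beside 32.9%) at an unadjusted p below 0.05. The deposited counts at that unadjusted threshold were 22 higher (beside 45.2%) and 11 lower (beside 35.6%). The median log2FC of the members was 0.70 against 0.13 over all genes as deposited, and 0.16 against -0.016 corrected. All 40 passed the filter on low values, CENPE and TTK only through their levels in CFPAC-1-GR. With median-of-ratios scaling, which lowered the log2FC of all genes by a median of 0.13 and the upward share of all SDE calls from 63.7% to 52.7%, 17 members were SDE upward and 5 downward.

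Counts of SDE genes by role in CFPAC-1-GR are as deposited and stand beside 20.5% of all genes upward and 11.7% downward. The kinetochore genes held the largest changes, 4 of 6 being SDE upward. CENPF was at 2.98, 2.97 and 2.41 FPKM in CFPAC-1 and 49.6, 32.9 and 36.5 FPKM in CFPAC-1-GR (log2FC 3.41 ± 0.16 (SE), adjusted p = 6.28e-06). CENPE was at 0.476, 0.426 and 0.518 FPKM in CFPAC-1 and 14.6, 8.99 and 10.6 FPKM in CFPAC-1-GR (log2FC 3.05 ± 0.16 (SE), adjusted p = 7.34e-06). Both were lowest in CFPAC-1 among the 4 lines, and the CFPAC-1-GR levels lay near those of BxPC-3, 33, 31 and 34.9 FPKM for CENPF and 10.2, 9.26 and 10.03 FPKM for CENPE. Both stayed SDE after the correction, at 2.14 and 1.62. NDC80 was at 1.78, 1.47 and 1.52 FPKM in CFPAC-1 and 5.70, 5.64 and 5.24 FPKM in CFPAC-1-GR (log2FC 1.34 ± 0.075 (SE), adjusted p = 8.51e-06). NUF2 was at 1.64, 1.46 and 1.49 FPKM in CFPAC-1 and 5.90, 4.67 and 5.80 FPKM in CFPAC-1-GR (log2FC 1.35 ± 0.094 (SE), adjusted p = 1.71e-05). The corrected log2FC was 0.33 for NDC80 and 0.29 for NUF2. CENPA, the centromeric histone H3 variant, fell (-0.49, corrected -0.57). SPC25, a further NDC80 complex subunit, did not pass as deposited (0.14, adjusted p = 0.281) and was lower when corrected (-0.73, adjusted p = 0.00138).

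Among spindle motors and microtubule-binding proteins 4 of 6 genes were SDE upward. HMMR, a spindle-associated hyaluronan receptor, was at 2.93, 2.51 and 2.83 FPKM in CFPAC-1 and 22.4, 17 and 19 FPKM in CFPAC-1-GR (log2FC 2.44 ± 0.11 (SE), adjusted p = 6.28e-06). KIF11 was at 8.95, 8.53 and 7.61 FPKM in CFPAC-1 and 53.3, 39.5 and 44.1 FPKM in CFPAC-1-GR (log2FC 2.31 ± 0.12 (SE), adjusted p = 7.57e-06). Both remained SDE after the correction (1.27 and 1.13). DLGAP5 was at 11, 10.6 and 9.90 FPKM in CFPAC-1 and 40.5, 32.6 and 34.7 FPKM in CFPAC-1-GR (log2FC 1.68 ± 0.096 (SE), adjusted p = 9.01e-06, corrected 0.58). NUSAP1, which bundles spindle microtubules, was at 11.4, 10.7 and 10.9 FPKM in CFPAC-1 and 29.1, 28.4 and 26.2 FPKM in CFPAC-1-GR (log2FC 1.26 ± 0.070 (SE), adjusted p = 8.46e-06, corrected 0.54). No resistant library of these 4 genes overlapped a parental one. TPX2 rose by less (0.52, corrected 0.21), and KIF2C, a microtubule depolymerase, did not pass (-0.19, adjusted p = 0.0554, corrected -0.15).

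Both chromosome genes were SDE upward. TOP2A was at 32.1, 27.9 and 23.2 FPKM in CFPAC-1 and 172, 125 and 150.1 FPKM in CFPAC-1-GR, the highest mean of any member in CFPAC-1-GR (log2FC 2.38 ± 0.16 (SE), adjusted p = 1.37e-05), and stayed SDE when corrected (1.17). MKI67 was at 24.4, 36 and 31.8 FPKM in CFPAC-1 and 92.6, 70.3 and 75.1 FPKM in CFPAC-1-GR (log2FC 1.35 ± 0.16 (SE), adjusted p = 0.000231, corrected 0.85). Of the 5 cytokinesis genes 3 were SDE upward. ANLN was at 7.97, 7.16 and 7.56 FPKM in CFPAC-1 and 39.3, 30.03 and 34.8 FPKM in CFPAC-1-GR (log2FC 2.05 ± 0.11 (SE), adjusted p = 7.34e-06, corrected 0.91). ECT2 was at 3.17, 3.59 and 3.38 FPKM in CFPAC-1 and 18, 11.9 and 15.3 FPKM in CFPAC-1-GR (log2FC 1.86 ± 0.14 (SE), adjusted p = 2.51e-05, corrected 0.64). KIF23 was at 3.95, 4.80 and 3.82 FPKM in CFPAC-1 and 12.3, 9.88 and 10.5 FPKM in CFPAC-1-GR (log2FC 1.20 ± 0.11 (SE), adjusted p = 5.59e-05), and its corrected log2FC of 0.22 did not pass (adjusted p = 0.0768). In each of these 3 the groups were apart by more than their ranges. PRC1 rose (0.66) and KIF20A fell (-0.23), corrected 0.37 and -0.40.

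By adjusted p all 5 spindle checkpoint genes rose and all 3 genes of the anaphase-promoting complex pathway fell in the FPKM as deposited. Of all genes 44.6% rose and 34.9% fell. The GC content of the 5 was 39.4% (MAD2L1) to 43.2% (BUB1B), and that of the 3 was 49.3% (PTTG1) to 57.9% (CDC20). With the correction 2 of these 8 were higher and 5 lower by adjusted p, beside 29.6% and 30.6% of all genes. TTK was at 1.08, 0.906 and 0.782 FPKM in CFPAC-1 and 7.62, 5.86 and 5.71 FPKM in CFPAC-1-GR (log2FC 1.94 ± 0.12 (SE), adjusted p = 1.03e-05, corrected 0.92). BUB1B was at 7.32, 7.24 and 6.29 FPKM in CFPAC-1 and 22.1, 17.6 and 17.2 FPKM in CFPAC-1-GR (log2FC 1.32 ± 0.11 (SE), adjusted p = 4.10e-05, corrected 0.55). The groups of neither gene overlapped. BUB1 was at 8.55, 7.95 and 7.86 FPKM in CFPAC-1 and 20.04, 18.4 and 17.7 FPKM in CFPAC-1-GR (log2FC 1.11 ± 0.074 (SE), adjusted p = 1.47e-05), was no longer SDE with median-of-ratios scaling (0.96) and did not pass when corrected (0.17, adjusted p = 0.0622). BUB3 and MAD2L1 rose by 0.83 and 0.73 and turned lower with the correction, to -0.30 and -0.44. CDC20 was at 233, 219 and 210.4 FPKM in CFPAC-1 and 96.2, 91.4 and 92.1 FPKM in CFPAC-1-GR, chr1:43358955-43363203 in GRCh38, and was the furthest fallen member (log2FC -1.23 ± 0.069 (SE), adjusted p = 8.50e-06, corrected -0.46). UBE2C was at 77.6, 94.6 and 90.8 FPKM in CFPAC-1 and 36.4, 50.3 and 46.2 FPKM in CFPAC-1-GR, just short of SDE (log2FC -0.98 ± 0.14 (SE), adjusted p = 0.000483), with a corrected log2FC of -0.81. The UBE2C log2FC in CFPAC-1-GR became SDE with median-of-ratios scaling (-1.14), and without replicate 1 of CFPAC-1 (-1.06) or replicate 2 (-1.07) or 3 (-1.01) of CFPAC-1-GR. PTTG1 fell with them (-0.69, corrected -0.63). All 3 kept a lower level at an adjusted p below 0.05 under the correction, which takes away any real change that follows GC content too.

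Mitotic kinases and passenger complex genes fell or did not pass as deposited, 4 of 6 falling and 0 rising. Of all genes 34.9% fell and 44.6% rose by adjusted p. PLK1 was at 30.1, 28.9 and 32.4 FPKM in CFPAC-1 and 12, 14.5 and 11.3 FPKM in CFPAC-1-GR (log2FC -1.22 ± 0.10 (SE), adjusted p = 3.72e-05). AURKB was at 12.7, 12.2 and 12.6 FPKM in CFPAC-1 and 4.88, 4.60 and 5.58 FPKM in CFPAC-1-GR (log2FC -1.17 ± 0.079 (SE), adjusted p = 1.56e-05). Every resistant library lay below every parental one, and the corrected values were -0.69 and -0.58, both lower at an adjusted p below 0.05. BIRC5 (-0.69, corrected -0.51) and CDCA8 (-0.56, corrected -0.34) also fell. AURKA was at 18.4, 18.8 and 18.5 FPKM in CFPAC-1 and 21.2, 20.8 and 19.8 FPKM in CFPAC-1-GR (log2FC 0.14, adjusted p = 0.0700, corrected -0.14), and INCENP went from a value that did not pass (-0.22) to higher (0.47, adjusted p = 0.00939) under the correction.

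The cyclins and their kinase did not move as a unit. CCNA2 was at 10.6, 11.3 and 10.8 FPKM in CFPAC-1 and 28.7, 25.9 and 23.9 FPKM in CFPAC-1-GR (log2FC 1.19 ± 0.084 (SE), adjusted p = 1.76e-05, corrected 0.41). CDK1 was at 6.15, 5.60 and 5.48 FPKM in CFPAC-1 and 18.4, 14.5 and 14.5 FPKM in CFPAC-1-GR (log2FC 1.31 ± 0.11 (SE), adjusted p = 3.27e-05), and did not pass when corrected (0.15, adjusted p = 0.143). All resistant libraries of both genes were higher. The B-type cyclins differed from both, since CCNB1 was at 52.1, 50.5 and 46.4 FPKM in CFPAC-1 and 54.3, 52.3 and 45.4 FPKM in CFPAC-1-GR, overlapping throughout (log2FC 0.025, adjusted p = 0.810). With the correction CCNB1 and CCNB2 were lower (-0.62 and -0.52). CDC25B was at 33.6, 25.2 and 35.6 FPKM in CFPAC-1 and 17.1, 15.7 and 10.8 FPKM in CFPAC-1-GR (log2FC -1.08 ± 0.20 (SE), adjusted p = 0.00179). It did not pass when corrected (-0.39, adjusted p = 0.150), and without replicate 3 of CFPAC-1 or replicate 3 of CFPAC-1-GR its log2FC of -0.98 or -0.89 was no longer SDE. FOXM1 was at 9.35, 10.3 and 15.7 FPKM in CFPAC-1 and 10.7, 9.92 and 6.76 FPKM in CFPAC-1-GR, the widest spread of any member in CFPAC-1 (log2FC -0.33 ± 0.22 (SE), adjusted p = 0.211). CDC25C had a log2FC of 0.12 (adjusted p = 0.228), and the corrected values were 0.072 for FOXM1 and -0.087 for CDC25C.

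Direction in CFPAC-1-GR ran with the GC content of the transcript. Across the 40 members the Spearman correlation of log2FC with GC content was -0.865, and across 12030 genes it was -0.777, with slopes of -1.52 and -0.84 for each 10% of GC content. In BxPC-3-GR the same correlations were 0.186 and 0.0388. The 18 members SDE upward in CFPAC-1-GR had a median GC content of 40.1% (35.3% to 48.3%), the 4 SDE downward one of 57.5% (55.6% to 59.3%), and the other 18 one of 47.9%. Of the 10 members with the lowest GC content, from 35.3% (CENPE) to 40.03% (ANLN), all 10 had a log2FC above 0 and 9 were SDE upward, with a median of 1.96. Of the 10 with the highest, from 50.00% (UBE2C) to 59.6% (INCENP), 0 were above 0 and 4 were SDE downward, with a median of -0.83. Gene length ran with the log2FC as well (Spearman 0.563 over the members). These correlations share libraries and base composition and are given as a description. The 5 members that stayed SDE upward after the correction, CENPF, CENPE, HMMR, TOP2A and KIF11, had deposited log2FC of 2.31 to 3.41.

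**Figure D4:**
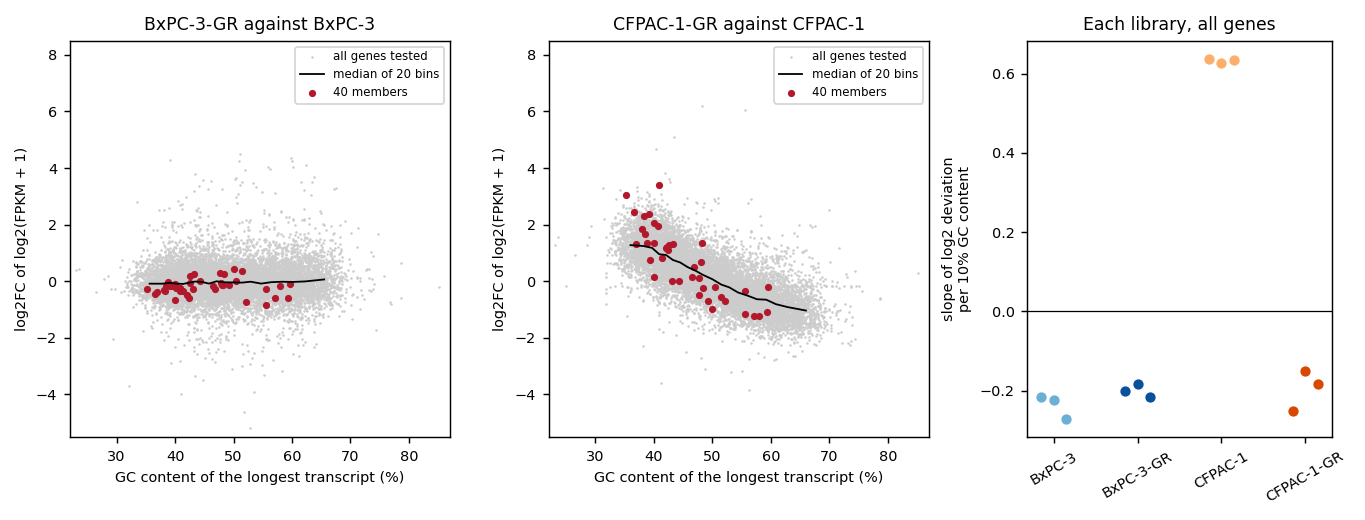
Left and centre, log2FC of each gene tested (grey) and of the 40 members (red) against the GC content of the longest transcript, with the median of 20 bins of genes as a line; right, the slope of each library's log2 deviation with GC content, 1 point per library. The line is flat for BxPC-3-GR and falls for CFPAC-1-GR, and the 3 CFPAC-1 libraries lie between 0.626 and 0.637 while the other 9 lie below 0. Deviations are from the mean of the 12 libraries, so the slopes balance out and only the gap between CFPAC-1 and the others is observed.

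**Figure D5:**
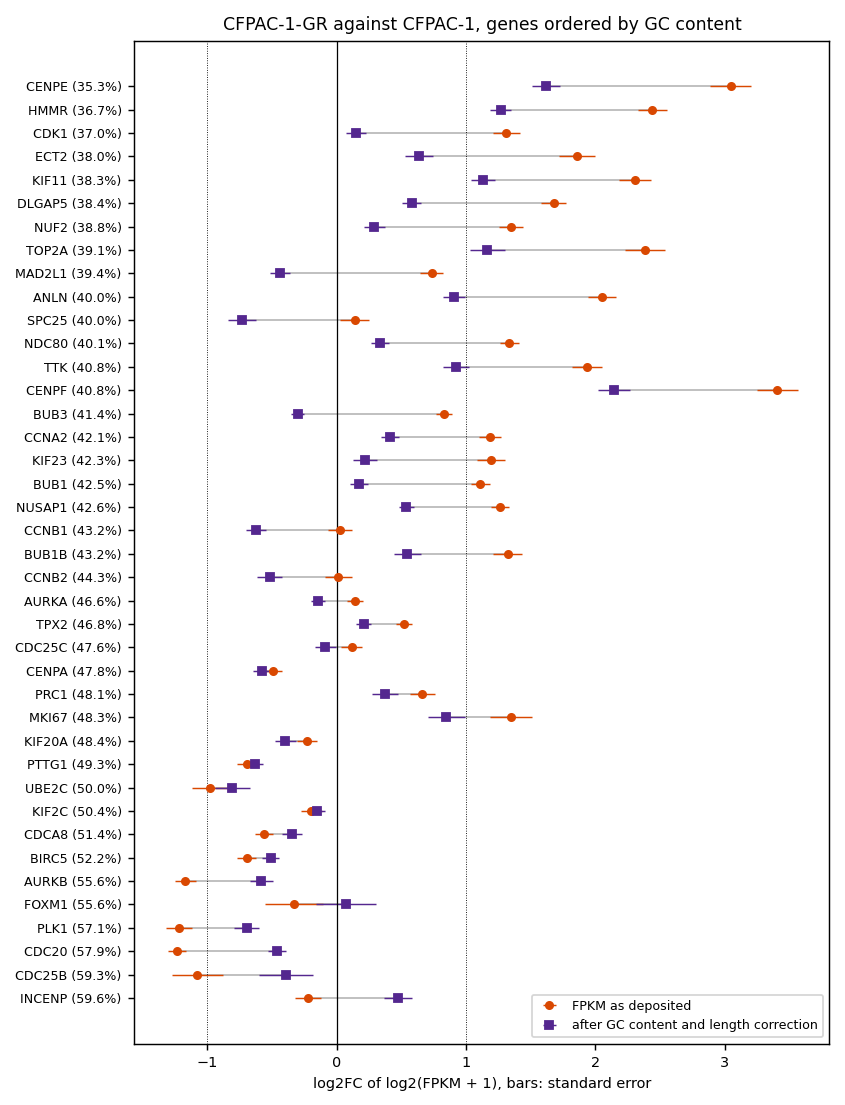
log2FC with standard errors in CFPAC-1-GR against CFPAC-1 for the 40 members, ordered from low to high GC content (in parentheses), from the FPKM as deposited (circles) and after correction for GC content and length (squares). The squares of the low GC members lie well to the left of their circles, and 5 remain above 1.

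A test of the difference in response between the lines, an interaction over all 12 libraries, called 19 members more upward in CFPAC-1-GR than in BxPC-3-GR (47.5%, beside 23.6% of 12210 genes) and 2 more downward (5%, beside 14.4%). By adjusted p alone 23 differed upward (beside 44.9%) and 9 downward (beside 31.6%). With median-of-ratios scaling, which brought the upward share of all calls from 62.1% to 46.9%, the counts were 15 and 4. With the correction they were 8 (20%, beside 9.31% of 12184 genes) and 1 (2.5%, beside 9.1%), with 19 upward and 12 downward (beside 31.6% and 31.7%) by adjusted p alone. The largest differences of log2FC were those of CENPF (3.64 ± 0.18 SE, corrected 2.44), CENPE (3.33 ± 0.18, corrected 1.94), HMMR (2.88 ± 0.13, corrected 1.67), ANLN (2.71 ± 0.12, corrected 1.57) and KIF11 (2.65 ± 0.14, corrected 1.47). This order holds on the scale of log2(FPKM + 1). The added 1 understates the change of CENPE more than that of CENPF, whose CFPAC-1 means were 0.473 and 2.79 FPKM. TTK (1.26), TOP2A (1.34) and MKI67 (1.07) also remained called when corrected. The member called downward with and without the correction was UBE2C (-1.42 ± 0.17, corrected -1.32), which was raised in BxPC-3-GR but lowered in CFPAC-1-GR, and CDC20 (-1.08) was called downward only without it (corrected -0.33).

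Set side by side by adjusted p, 13 members that fell in BxPC-3-GR had risen in CFPAC-1-GR as deposited, among them CCNA2, CENPE, CENPF, KIF11, HMMR, ANLN and TOP2A, and 11 did after the correction (beside 15.5% of 10393 and 9.67% of 10377 genes tested in both lines). CDCA8, UBE2C and KIF20A went the opposite way, up in BxPC-3-GR but down in CFPAC-1-GR, with and without it (3 members, beside 9.92% and 8.67%). CDC25B, PLK1, AURKB and BIRC5 fell in both lines as deposited, and PLK1, AURKB, BIRC5, CCNB1 and BUB3 did after the correction (4 and 5 members, beside 11.3% and 10.5%). BUB1B alone among the members rose in both, with and without the correction (beside 11.9% and 8.9%). PLK1 had log2FC of -0.59 and -1.22 in the 2 lines, BIRC5 of -0.73 and -0.69, and AURKB of -0.27 and -1.17.

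Other genes of cell division were read from lists of mitosis, S phase and G1 control genes. Of 113 other mitosis genes, 109 were tested in BxPC-3-GR, where 50 fell and 6 rose by adjusted p (beside 31.5% and 26.2% of all genes). The median log2FC was -0.22, against -0.045 over all genes. Of the 109, 1 was SDE upward (RAD21, a cohesin subunit, 1.04) and 1 downward (CDC25A, the phosphatase that activates CDK2, -1.34), beside 4.14% and 3.62% of all genes. CDC25A was no longer SDE without replicate 1 of BxPC-3 (-0.95) or replicate 3 of BxPC-3-GR (-1.22). In CFPAC-1-GR 107 were tested, with 44 SDE upward and 10 downward as deposited and 10 and 3 when corrected (median log2FC 0.78 and 0.076, against 0.13 and -0.016 over all genes). The shares of all genes were 20.5% upward and 11.7% downward as deposited, and 4.69% and 3.97% corrected. The pair of genes that rose furthest and the pair that fell furthest there were ASPM, a spindle pole protein (3.32, corrected 1.88), KIF20B, a cytokinetic kinesin (3.21, corrected 1.87), UBE2S, the ubiquitin chain-extending enzyme of the anaphase-promoting complex (-1.67, corrected -1.12), and MYBL2, the B-MYB factor that activates G2/M genes (-1.59, corrected -0.73). In BxPC-3-GR the log2FC of MYBL2 was -0.055 (adjusted p = 0.720).

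S phase genes fell broadly in BxPC-3-GR, with 24 of 28 lower and 1 higher by adjusted p, beside 31.5% and 26.2% of all genes. Their median log2FC was -0.46, against -0.045 over all genes. Of them RRM2, a subunit of ribonucleotide reductase (-1.22), and GINS3, a subunit of the replicative helicase (-1.21), were SDE downward, beside 3.62% of all genes. In CFPAC-1-GR they were mixed, with 11 higher and 9 lower by adjusted p as deposited, beside 44.6% and 34.9% of all genes. Corrected, 12 were higher and 9 lower, beside 29.6% and 30.6%. The median log2FC was 0.076 as deposited and 0.064 corrected. As deposited 4 were SDE upward, among them POLA1, a subunit of the priming polymerase (1.56, corrected 0.65), and 3 downward (28 genes tested, beside 20.5% and 11.7% of all genes). The downward calls were led by CDT1, a replication licensing factor (-1.67, corrected -0.73), and MCM5, a helicase subunit (-1.17, corrected -0.78).

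Among 26 G1 control genes, 20 were tested in BxPC-3-GR, with 9 lower and 2 higher by adjusted p (beside 31.5% and 26.2% of all genes, median log2FC -0.37). In CFPAC-1-GR 22 were tested, with 5 lower and 14 higher as deposited (beside 34.9% and 44.6%). Corrected, 5 were lower and 10 higher (beside 30.6% and 29.6%). The median log2FC there was 0.41 as deposited and 0.22 corrected. As deposited 4 of the 22 were SDE upward and 2 downward, beside 20.5% and 11.7% of all genes. After the correction 1 was SDE upward and 0 downward, beside 4.69% and 3.97%. CCNE1, cyclin E1, was SDE downward in BxPC-3-GR (-1.41), and CDK6, a G1 kinase, was SDE upward in CFPAC-1-GR (2.70, corrected 1.33), as was RBL1, the pocket protein p107 (1.88, corrected 0.73). CDKN1B, which encodes the CDK inhibitor p27, rose in both lines, from 10.4 ± 1.04 FPKM to 18.8 ± 3.03 FPKM (log2FC 0.79 ± 0.13 (SE), adjusted p = 0.00281) and from 4.95 ± 0.338 FPKM to 9.56 ± 0.699 FPKM (log2FC 0.83 ± 0.081 (SE), adjusted p = 7.59e-05, corrected 0.67; means ± SD, n = 3). CDKN1A, the inhibitor p21, fell in both, from 24.8 ± 1.56 FPKM to 17.7 ± 0.707 FPKM (log2FC -0.46 ± 0.065 (SE), adjusted p = 0.00139) and from 28.9 ± 2.14 FPKM to 12.2 ± 1.51 FPKM (log2FC -1.19 ± 0.11 (SE), adjusted p = 4.93e-05, corrected -0.49). CCND1, cyclin D1, was lower in BxPC-3-GR (-0.47) but higher in CFPAC-1-GR (0.38, corrected 0.34). E2F1, the S phase transcription factor, went from 93.8 ± 3.82 FPKM in CFPAC-1 to 27.6 ± 1.57 FPKM in CFPAC-1-GR (log2FC -1.73, corrected -0.78), while its levels in BxPC-3 and BxPC-3-GR were 14.8 ± 0.209 FPKM and 14.9 ± 1.86 FPKM.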

How the data were processed

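The authors sequenced RNA from both parental and both resistant lines, with 3 libraries per line. The authors deposited FPKM for 58302 genes with GRCh38 and Ensembl release 91. The submitters' processing notes name Trimmomatic 0.27, FastQC 0.10.1 and TopHat2 2.0.8, and both hg19 and GRCh38 as builds. The counting program is not given in the sources used here. FPKM divide fragments by gene length and mapped fragments, so no count test was run. Depth was inferred from the steps between low values, 47.2% to 61.8% of which were whole fragments within 0.05. Spearman correlations between libraries of 1 group were 0.917 to 0.925.

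Each resistant line was compared with its parent by limma 3.58.1 (R 4.3.3, lmFit and eBayes) on log2(FPKM + 1), which understates changes of low genes, keeping genes that averaged 1 FPKM or more over the 6 libraries. P values were adjusted by Benjamini-Hochberg over all genes tested. The interaction used all 12 libraries. GC content (longest transcript) and exon length came from GENCODE 29 for 58039 genes. The correction took from each library's log2 deviations a spline on GC content and length (5 degrees of freedom each), which also centres each library. The paper's methods name DESeq2, which FPKM do not allow. Each result was also recomputed with upper-quartile and median-of-ratios scaling, with a pseudocount of 0.1, without the filter, in a joint fit of the 12 libraries, with the replicate number as a block, and with each library left out. The procedure was also run on simulated data, with changes added to genes drawn without regard to GC content. That run cannot show how the correction treats real changes that follow GC content.

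The members, gene lists and tests were chosen with earlier results of these data known. Named were members SDE in either line, the 3 highest and 3 lowest log2FC per line, the first member of each role, the 5 largest interactions, the 2 extreme called genes of each other list per line and direction, CDKN1A, CDKN1B, CCND1, E2F1 and MYBL2, and the genes with printed promoters. 1 item that the rule names is not reported here. Other members are named to account for all 40. SEPT7 and SEPT9 were matched by Ensembl ID, since their symbols had been turned into dates. Promoters were taken from RefSeq (GRCh38.p14) and searched on both strands with Python 3.11.15.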

Additional observations from a re-analysis of the deposited data

Results flagged for a closer look

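As deposited, the log2FC of resistant against parental libraries differed between the lines for 21 members in the interaction test over 12 libraries. The criteria were an adjusted p below 0.05 in limma and a difference of log2FC above 1 in size. With 1 resistant line per parent, a response to selection cannot be told from other differences between these lines or libraries. The difference, CFPAC-1-GR against CFPAC-1 less BxPC-3-GR against BxPC-3, was 1.66 for CCNA2 and 1.71 for CDK1 among the cyclins and their kinase. For checkpoint genes it was 1.16 (BUB1), 1.06 (BUB1B), 1.19 (BUB3) and 2.28 (TTK). For kinetochore genes it was 1.59 (NDC80), 1.38 (NUF2), 3.33 (CENPE) and 3.64 (CENPF). Spindle genes gave 2.65 (KIF11), 1.07 (NUSAP1), 1.83 (DLGAP5) and 2.88 (HMMR), cytokinesis genes 1.79 (KIF23), 2.17 (ECT2) and 2.71 (ANLN), and chromosome genes 2.55 (TOP2A) and 1.48 (MKI67). CDC20 (-1.08) and UBE2C (-1.42) differed downward. The trend of CFPAC-1 libraries with GC content moved with these differences: 9 of the 21 stayed called after correction for GC content and length, namely TTK, CENPE, CENPF, KIF11, HMMR, ANLN, TOP2A, MKI67 and UBE2C. The corrected differences of the other 12 were 0.84 (CCNA2), 0.51 (CDK1), 0.25 (BUB1), 0.29 (BUB1B), 0.087 (BUB3), -0.33 (CDC20), 0.55 (NDC80), 0.27 (NUF2), 0.30 (NUSAP1), 0.69 (DLGAP5), 0.83 (KIF23) and 0.95 (ECT2). Median-of-ratios scaling ended the call of BUB1 (0.87), BUB1B (0.77), BUB3 (0.90) and NUSAP1 (0.77). BUB1B was also no longer called without replicate 3 of CFPAC-1 (0.996) or replicate 1 of CFPAC-1-GR (0.95), and NUSAP1 without replicate 1 of BxPC-3 (0.99).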

How the results depend on the processing

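In BxPC-3-GR 0 members were SDE under every alternative tried, the number lower by adjusted p stayed between 17 and 20, and 5 were higher in each. In CFPAC-1-GR the pseudocount, the absence of a filter, upper-quartile scaling and a fit of all 12 libraries left 18 SDE upward and 4 downward. The GC content and length correction, alone or with the replicate block, left 5 upward and 0 downward in CFPAC-1-GR, and 8 and 1 in the interaction, where median-of-ratios scaling left 15 and 4. The block alone gave 18 and 4 in CFPAC-1-GR, 19 and 2 in the interaction, and 19 lower and 5 higher by adjusted p in BxPC-3-GR. Deviations of same-numbered libraries correlated at 0.0959, -0.0521 and 0.0584 in the BxPC-3 lines and 0.000145, -0.143 and -0.0671 in the CFPAC-1 lines. Among libraries with different numbers values such as -0.113 in the BxPC-3 lines and 0.128 in the CFPAC-1 lines occurred. Whether same-numbered libraries were prepared together cannot be told from these correlations. Leaving out 1 library gave 18 upward and 3 to 5 downward in CFPAC-1-GR (22 to 23 higher and 9 to 11 lower by adjusted p), 17 to 20 lower and 5 higher in BxPC-3-GR, and 18 to 19 upward and 2 downward in the interaction (23 to 24 higher, 8 to 11 lower). Some log2FC changed sign. In BxPC-3-GR median-of-ratios scaling turned NUF2 (0.014), upper-quartile scaling NUF2 (0.018) and MYBL2 (0.00049), and the correction, with or without the block, NUF2 (0.068) and SPC25 (0.0025). In CFPAC-1-GR median-of-ratios scaling turned CCNB1 (-0.13), CCNB2 (-0.14), CDC25C (-0.019) and AURKA (-0.011), and the correction, with or without the block, CCNB1 (-0.62), CCNB2 (-0.52), CDC25C (-0.087), FOXM1 (0.072), AURKA (-0.14), INCENP (0.47), BUB3 (-0.30), MAD2L1 (-0.44) and SPC25 (-0.73). Of all these BUB3 and MAD2L1 had passed the test as deposited. With 1 library left out the log2FC of NUF2 (-0.15 to 0.061), CCNB2 (-0.014 to 0.084), KIF2C (-0.0068 to 0.058), AURKA (-0.35 to 0.15), SPC25 (-0.23 to 0.00013) and MYBL2 (-0.13 to 0.080) in BxPC-3-GR and of CCNB2 (-0.074 to 0.081) and CCNB1 (-0.026 to 0.10) in CFPAC-1-GR took either sign. The cause was not tested. Depth limits TTK and CENPE in CFPAC-1 most.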

Other observations

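Condensin and cohesin, the complexes that compact mitotic chromosomes and hold sister chromatids together, were read as a list of 17 genes, all tested in both lines, and the genes named below were chosen after their values were seen. In BxPC-3-GR 9 fell and 1 rose by adjusted p, beside 31.5% and 26.2% of all genes (median log2FC -0.22, against -0.045). The gene that rose was RAD21, the cleavable subunit of cohesin, from 20.8 ± 0.627 FPKM to 44 ± 1.86 FPKM (SD, n = 3; log2FC 1.04 ± 0.055 (SE), adjusted p = 3.17e-05 in limma), and SMC1A, an ATPase of the same complex, fell (-0.45). In CFPAC-1-GR 10 were SDE upward and 1 downward as deposited, beside 20.5% and 11.7% of all genes. After correction for GC content and length 5 were SDE upward and 0 downward, beside 4.69% and 3.97%. The median GC content of the 17 genes was 40.8%, against 49.2% over all genes tested. The 5 were SMC3 (2.68, corrected 1.57), STAG2 (2.65, corrected 1.27) and PDS5A (2.30, corrected 1.06) of cohesin, and NCAPG (2.31, corrected 1.16) and SMC2 (2.31, corrected 1.03) of condensin. SMC3 had a mean of 5.39 ± 0.251 FPKM in CFPAC-1, 40.2 ± 4.86 FPKM in CFPAC-1-GR, 50.1 ± 4.57 FPKM in BxPC-3 and 43.4 ± 1.01 FPKM in BxPC-3-GR.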
